A study of Mus musculus with 11 samples.

Results

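Mitochondrial ribosomal proteins are the nuclear-encoded proteins of the ribosome that works inside mitochondria. They were followed by RNA-seq in im-scWAT cells, which are immortalized preadipocytes of mouse inguinal subcutaneous white fat. The members were chosen by symbol: every coding gene named Mrpl (large subunit) or Mrps (small subunit) followed by a number, read on its sense strand from the transcript that the files mark as representative of the gene. This gave 76 genes of 21452 coding genes, 47 of the large and 29 of the small subunit, on 17 chromosomes. All 76 had a mean of at least 1 FPKM (fragments per kilobase of exon, scaled to the mapped fragments of the sample) over the 11 samples, as did 11360 of the 21452 coding genes, which are the genes tested below.

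A time course held 6 samples. Confluent preadipocytes were taken at day 0, and the others at day 4 and day 8 after induction with indomethacin, dexamethasone, 3-isobutyl-1-methylxanthine, insulin and T3, with rosiglitazone (ROS, a ligand of the nuclear receptor PPARγ) at 0.5 µM or without it. Cells induced with ROS are called beige adipocytes in the study and cells induced without it white adipocytes. Both day 0 samples were taken before ROS was added, although their labels read plus (sample 1) and minus (sample 2), so they served as the replicate of day 0. Another 5 samples were day 8 cells with ROS in which retroviruses had delivered a short hairpin RNA under the U6 promoter against mouse Jmjd1a, a histone H3 lysine 9 demethylase now named Kdm3a, together with a human JMJD1A cDNA. That cDNA was wild type in WT A and WT B. In S265A the serine phosphorylated by protein kinase A was replaced by alanine, in S265D by aspartate, and S265D-H1120Y also carried a change in the iron-binding site that the demethylase needs. All samples are of the immortalized im-scWAT cells, and each retroviral construct is carried by the cells from the preadipocyte stage on, and day 4 with and without ROS, day 8 with and without ROS, S265A, S265D and S265D-H1120Y had 1 sample each. Sources differ on when ROS was taken away ahead of day 8, and the labels do not say whether WT A and WT B are separate cultures of the same experiment, so p-values measure only the spread between these samples.

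Mitochondria keep a small genome that encodes a few subunits of the respiratory chain and of ATP synthase, and a dedicated ribosome translates them at the inner membrane. The RNA of this ribosome is made inside mitochondria, whereas all of its proteins are made in the cytosol from nuclear genes and imported. Its small subunit reads the mRNA, and its large subunit joins the amino acids and passes the new chain to the membrane. Brown and beige adipocytes are rich in mitochondria, and uncoupled respiration there releases heat.

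The depth behind the values was 3.10 to 5.29 Gb of mapped bases per sample (median 4.64 Gb), and the thinnest member in any sample still had 42420 mapped bases. The members of the day 0 pair differed by a median of 0.127 on the log2 scale, and those of the WT pair by 0.402. Adipoq, Plin1 and Cidec, which mark fat cells, stood at 0.19 FPKM or less at day 0 and at 144 or more in every induced sample. The summed level of the 6 adipocyte markers (Adipoq, Fabp4, Plin1, Cidec, Lpl, Pparg) was 284 and 281 FPKM at day 0 and 9809 to 35956 FPKM in the other 9 samples. The 5 markers of dividing cells (Mki67, Top2a, Ccnb1, Cdk1, Mcm5) summed to 454 and 409 FPKM at day 0, 240 to 319 FPKM in the 4 induced samples of the time course and 98.6 to 175 FPKM in the transduced samples. Mcm5 alone was higher at day 8 without ROS (100 FPKM) than at day 0 (78.2 and 85.7 FPKM). Preadipocyte markers, mostly Ly6a, summed to 483 and 549 FPKM at day 0, 182 and 131 FPKM at days 4 and 8 with ROS, and 232 and 555 FPKM without it. Dlk1, Cd34 and Thy1 were lower in all 4 induced samples than at day 0, and Pdgfra was higher. Emr1 and Ptprc, which define macrophages and leukocytes, were at 0 in all 11 samples. In such bulk cultures fewer cells of a type and less RNA per cell cannot be told apart, and the part of these shifts in the members' values was not tested.

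The promoters of 6 members that the text below returns to are shown first. They are the 120 bases before the transcription start in RefSeq (build GRCm38.p6, 5′ to 3′ in the direction of the gene). Capitals mark a searched motif, which was the ETS motif CCGGAAG or, in Mrpl20, the E-box CACGTG. Mrpl12, Mrpl20, Mrps22 and Mrps18a are shown as members higher after induction, and Mrpl33 and Mrpl52 as the members lower in all 4 induced samples than in both day 0 samples.
Mrpl12, chr11:120484517-120484636, plus strand: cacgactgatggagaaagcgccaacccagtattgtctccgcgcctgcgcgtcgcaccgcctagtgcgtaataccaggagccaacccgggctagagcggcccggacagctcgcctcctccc
Mrpl20, chr4:155802758-155802877, plus strand: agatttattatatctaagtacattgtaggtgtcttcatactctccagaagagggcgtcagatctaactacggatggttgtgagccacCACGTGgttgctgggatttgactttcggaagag
Mrps22, chr9:98601680-98601799, minus strand: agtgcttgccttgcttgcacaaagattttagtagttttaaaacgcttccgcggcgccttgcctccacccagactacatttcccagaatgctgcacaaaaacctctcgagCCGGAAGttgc
Mrps18a, chr17:46110884-46111003, plus strand: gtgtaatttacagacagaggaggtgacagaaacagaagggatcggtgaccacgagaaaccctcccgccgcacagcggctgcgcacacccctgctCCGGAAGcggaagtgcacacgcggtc
Mrpl33, chr5:31613831-31613950, plus strand: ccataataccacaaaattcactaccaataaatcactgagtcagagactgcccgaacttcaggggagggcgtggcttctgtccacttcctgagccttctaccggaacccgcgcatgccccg
Mrpl52, chr14:54426789-54426908, plus strand: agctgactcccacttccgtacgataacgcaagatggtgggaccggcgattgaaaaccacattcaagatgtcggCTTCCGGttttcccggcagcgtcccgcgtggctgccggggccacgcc

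In the wider window of the promoter table, from 250 bases before to 50 bases after the start, 67 of the 76 members had 73 promoters. The ETS motif CCGGAAG stood on either strand of 32.9% of the members' promoters, of 18.2% of those of the genes tested and of 8.86% of all 32851 promoters. By subunit it stood in 13 of 46 large subunit and 11 of 27 small subunit promoters. The promoters of cytosolic ribosomal protein genes held it at a similar share, 36.1%. The YY1 motif AAGATGGCG stood in 10.96% of the members' promoters, 3.19% of those of the genes tested and 1.403% of all promoters, and the NRF1 core CGCATGCG in 9.59%, 4.16% and 1.87%. The E-box CACGTG stood in 9.59%, 10.3% and 7.15%, and TATAAA in 6.85%, 6.73% and 13.6%, so these shares were close to those of the genes tested. The ERR motif TCAAGGTCA stood in 0 of the 73 promoters, in 0.280% of those of the genes tested and in 0.423% of all. None of these strings holds another. The median log2 ratio of day 8 with ROS over day 0 was 0.73 in the 24 members with the ETS motif and 0.76 in the 43 without it. Whether this exact string goes with the size of the change was not tested. Both Mrps22, which was higher, and Mrpl52, which was lower, carry the ETS motif. Mrpl33 holds it outside the stretch shown.

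Levels differed widely among proteins that sit in the ribosome in single copies for the most part. Mean levels over the 11 samples went from 7.37 FPKM for Mrps25 to 225 FPKM for Mrps21, with a median of 43.2 FPKM. In the large subunit Mrpl12 (199 FPKM), which forms the stalk that brings translation factors to the ribosome and is present in several copies, Mrpl13 (174 FPKM) and Mrpl20 (161 FPKM), which in bacteria joins the large subunit early in its assembly, were the highest. Mrpl19 (8.28 FPKM), Mrpl17 (8.37 FPKM) and Mrpl1 (9.34 FPKM), the protein of the mobile L1 stalk, were the lowest. In the small subunit Mrps21 (225 FPKM), Mrps6 (147 FPKM) and Mrps18a (90.1 FPKM) were the highest, and Mrps25 (7.37 FPKM), Mrps14 (18.0 FPKM) and Mrps31 (21.2 FPKM) the lowest. Mrps6 shares exon sequence with Slc5a3 on the same strand, so part of its level may belong to that gene. The same holds for Mrpl33 with Bre, Mrpl48 with D630004N19Rik, Mrpl53 with Ccdc142, Mrps24 with Urgcp and Mrps34 with Nme3.

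**Figure D1:**
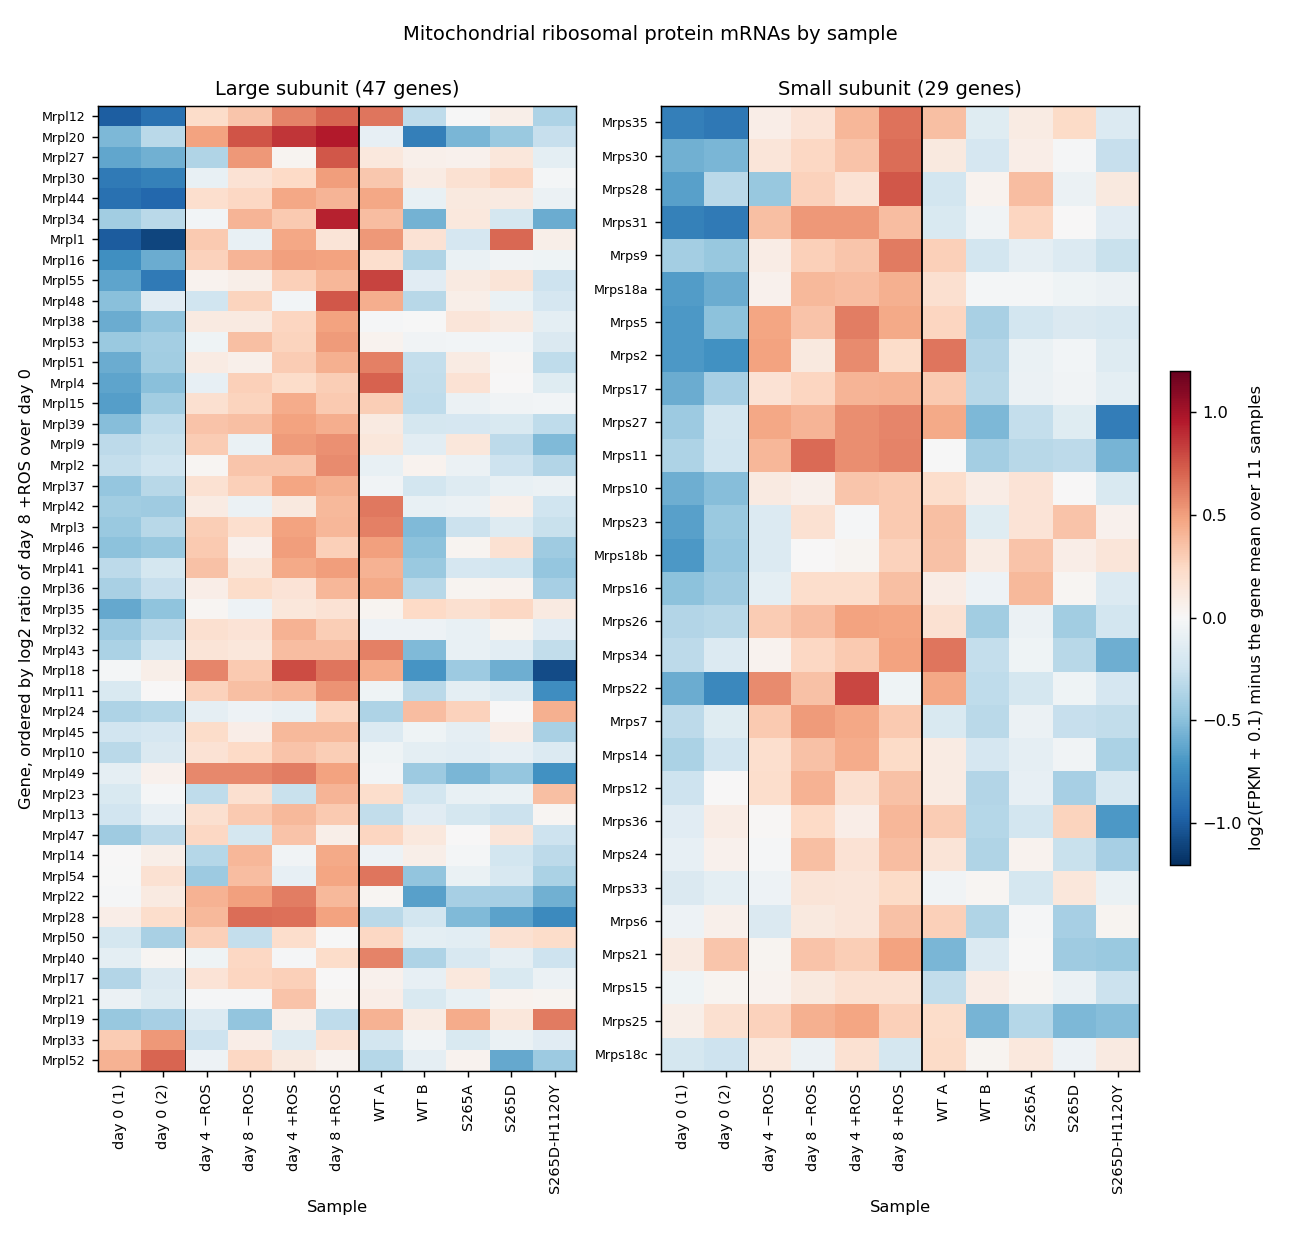
Level of each of the 76 members (rows, ordered within each subunit by the log2 ratio of day 8 with ROS over day 0) in each of the 11 samples (columns), as log2(FPKM + 0.1) minus the gene's mean over the samples. Both day 0 columns are below the mean for most rows, 62 of the 76 members were higher in all 4 induced samples of the time course than in both day 0 samples, and Mrpl33 and Mrpl52 at the foot of the large subunit run the other way.

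The first question was how the members change when preadipocytes become adipocytes. Most were higher after induction, with and without ROS, in the large and in the small subunit. At day 8 with ROS 49 of 76 members were at least 1.5-fold higher than the mean of day 0, against 25.3% of the genes tested, and 0 were at least 1.5-fold lower, against 32.5%. The median log2 ratio was 0.76 for the members and -0.16 for all genes tested. Of the 76, 18 were at least 2-fold higher, the cutoff used in the study, against 17.1% of the genes tested. In the large subunit 31 of 47 were at least 1.5-fold higher (median log2 ratio 0.73) and in the small subunit 18 of 29 (0.82). The ratios are of FPKM + 0.1, and each induced condition is a single sample compared with the pair of day 0.

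The other induced samples, compared with the same day 0 pair, gave 46 members higher and 0 lower at day 4 with ROS (24.3% and 23.5% of the genes tested), 36 higher and 0 lower at day 8 without ROS (26.2% and 20.7%), and 29 higher and 2 lower at day 4 without ROS (24.3% and 19.9%). By subunit, the members higher were 28 of 47 large and 18 of 29 small at day 4 with ROS, 18 of 47 and 18 of 29 at day 8 without ROS, and 17 of 47 and 12 of 29 at day 4 without ROS. Median log2 ratios of the large and the small subunit were 0.66 and 0.69 at day 4 with ROS, 0.52 and 0.71 at day 8 without ROS, and 0.47 and 0.50 at day 4 without ROS. The corresponding medians of all genes tested lay between -0.04 and 0.03. All 4 induced samples were above both day 0 samples for 62 members, 38 of the large and 24 of the small subunit, which is an order that 32.6% of the genes tested showed. The reverse order was found for 2 members and 32.7% of the genes tested. Between the day 0 samples themselves 0 members differed by 1.5-fold in either direction (0.467% of the genes tested were that much higher in sample 2 and 3.26% that much lower), and their median log2 difference was 0.12, with sample 2 the higher.

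**Figure D2:**
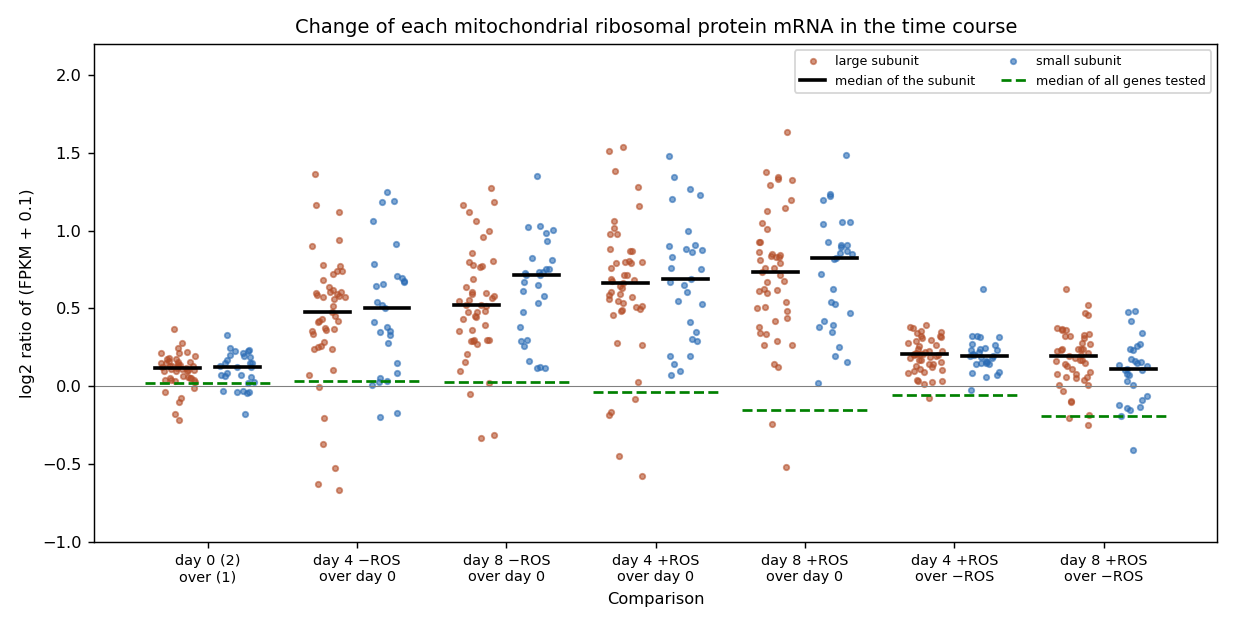
Log2 ratio of (FPKM + 0.1) of each member (points, large subunit left and small subunit right in each pair) in comparisons of the time course, with the median of each subunit (black bars) and of all genes tested (green dashes). The medians of both subunits lie between 0.47 and 0.82 in the comparisons with day 0, and between 0.11 and 0.21 in the comparisons of ROS with no ROS.

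In limma on log2(FPKM + 0.1), with Benjamini-Hochberg adjustment over the 11360 genes tested, 58 members rose and 0 fell at day 8 with ROS at an adjusted p of 0.05, while 28.7% of the genes tested rose and 36.1% fell. At day 4 with ROS 56 rose and 1 fell (26.6% and 26.9% of the genes tested), at day 8 without ROS 48 rose and 0 fell (30.1% and 23.5%), and at day 4 without ROS 40 rose and 1 fell (25.9% and 23.9%). The member that fell was Mrpl33 in both. The spread in this fit comes from the day 0 pair alone (1 residual degree of freedom). In a fit over all 11 samples, in which the wider WT pair enters the spread, 8, 2, 0 and 0 members rose in the same order. The shares of the genes tested that rose in that fit were 10.7%, 5.39%, 4.88% and 4.29%, so the share of the members was not above them. With no minimum FPKM 14, 9, 7 and 6 members rose, against 8.83%, 7.22%, 8.35% and 5.87% of 21452 genes.

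Mrpl12, the stalk protein, was the member with the largest ratio at day 8 with ROS. It lies at chromosome 11 from 120345983 to 120350068 on the plus strand (mm9, as all positions of genes here). Its level was 93.6 and 99.9 FPKM at day 0, 217 and 234 FPKM at day 4 and day 8 without ROS, and 281 and 301 FPKM at day 4 and day 8 with ROS. The 4 induced samples were all above the day 0 samples, and both ROS samples were above both samples without ROS. Mrpl12 rose by a log2 fold change of 1.64 ± 0.109 (SE) at day 8 with ROS (limma, adjusted p = 0.00269).

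Mrpl20 (chromosome 4, 155177727 to 155182938) followed the same order. It stood at 101 and 118 FPKM at day 0, 205 and 248 FPKM at days 4 and 8 without ROS, and 266 and 285 FPKM with ROS. In limma it rose by 1.38 ± 0.143 on the log2 scale at day 8 with ROS (adjusted p = 0.00602). Mrpl1, which forms the stalk on the other side of the large subunit where the used tRNA leaves, was lower in level and peaked earlier. It had 4.34 and 4.03 FPKM at day 0, 12.1 FPKM at day 4 and 9.73 FPKM at day 8 with ROS, and 10.9 and 8.22 FPKM without ROS. Mrpl1 was thus higher at day 4 than at day 8 in both arms, and it rose by 1.51 ± 0.111 at day 4 with ROS (limma, adjusted p = 0.00433).

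In the small subunit Mrps35, a protein without a counterpart in bacterial ribosomes, had the largest ratio at day 8 with ROS. Its level was 24.2 and 23.5 FPKM at day 0, 45.1 and 47.9 FPKM at days 4 and 8 without ROS, and 56.2 and 67.1 FPKM with ROS. It rose by 1.49 ± 0.101 on the log2 scale (limma, adjusted p = 0.00278). Mrps31 had the largest ratio of all members at day 8 without ROS, where its log2 ratio was 1.35. It went from 11.5 and 11.2 FPKM at day 0 to 26.1 and 29.1 FPKM at days 4 and 8 without ROS and 29.04 and 26.2 FPKM with ROS, and the samples with and without ROS overlapped. Mrps22, a subunit in which mutations cause human mitochondrial disease, was the member with the lowest ratio of day 8 over day 4 with ROS. It had 20.8 and 18.4 FPKM at day 0, 54.9 FPKM at day 4 and 30.3 FPKM at day 8 with ROS, and 46.6 and 40.2 FPKM without ROS. All of its induced values were above day 0, but the value at day 8 with ROS was the lowest of them.

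Mrpl33 and Mrpl52 were lower in all 4 induced samples than in both day 0 samples. They were not the only members below day 0: at day 4 the log2 ratio was below 0 for 5 members with ROS and 8 without it, among them Mrpl54 (-0.19 and -0.53), Mrpl14 (-0.08 and -0.37) and Mrpl23 (-0.17 and -0.20). Mrpl33 (chromosome 5, 31916324 to 31925017) is a small protein of the large subunit, and Mrpl52 (chromosome 14, 55045746 to 55048587) is found in mitochondrial but not in bacterial ribosomes. Mrpl33 had 142 and 165 FPKM at day 0, 96.4 and 121 FPKM at days 4 and 8 without ROS, and 103 and 129 FPKM with ROS. It fell by 0.57 on the log2 scale at day 4 with ROS (limma, SE 0.145, adjusted p = 0.0480). At day 8 with ROS its log2 fold change was -0.24 and did not pass (adjusted p = 0.227), and its shared exon sequence with Bre leaves part of this level uncertain. Mrpl52 had 63.8 and 77.2 FPKM at day 0, 45.6 and 56.7 FPKM without ROS, and 51.7 and 49.1 FPKM with ROS. Its log2 fold change was -0.51 ± 0.165 at day 8 with ROS (limma, adjusted p = 0.0698) and did not pass in any comparison of this fit. At day 4 without ROS, where only Mrpl33 fell, 4 members fell with a variance trend or with a pseudocount of 1, namely Mrpl33, Mrpl52, Mrpl54 and Mrpl14. In these fits 25.1% and 25.7% of the genes tested fell, so a fall was rarer among the members.

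Members fixed for their place or role showed how unevenly related proteins moved. Mrps18a, Mrps18b and Mrps18c are paralogues of 1 bacterial protein. Mrps18a, whose product sits in the large subunit in structures despite its name, had 55.2 and 58.1 FPKM at day 0 and 115 and 118 FPKM at day 8 without and with ROS. Mrps18b had 36.0 and 42.1 FPKM at day 0 and 58.4 and 70.6 FPKM at day 8. Mrps18c had 60.9 and 59.4 FPKM at day 0, 76.9 and 80.0 FPKM at day 4 and 67.4 and 61.0 FPKM at day 8. Their log2 ratios at day 8 with ROS were 1.05, 0.85 and 0.02, so at that time Mrps18c was near its day 0 level while the others were higher.

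Mrps30, which also sits in the large subunit in structures, went from 26.1 and 26.6 FPKM at day 0 to 46.4 and 62.1 FPKM at day 8 without and with ROS. Mrps12, a protein of the decoding centre, had 26.4 and 31.3 FPKM at day 0 and 41.8 and 40.0 FPKM at day 8. Mrps7, Mrps16 and Mrps34, in which mutations cause human disease of the respiratory chain, had log2 ratios of 0.54, 0.82 and 0.72 at day 8 with ROS. Mrpl3, close to the site where amino acids are joined, had 0.79, Mrpl11 at the base of the stalk 0.62, and Mrpl44, which resembles an RNA-cutting enzyme and is mutated in a human cardiomyopathy, 1.33. Mrps36, now assigned to the 2-oxoglutarate dehydrogenase complex rather than to the ribosome, had 0.42.

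**Figure D3:**
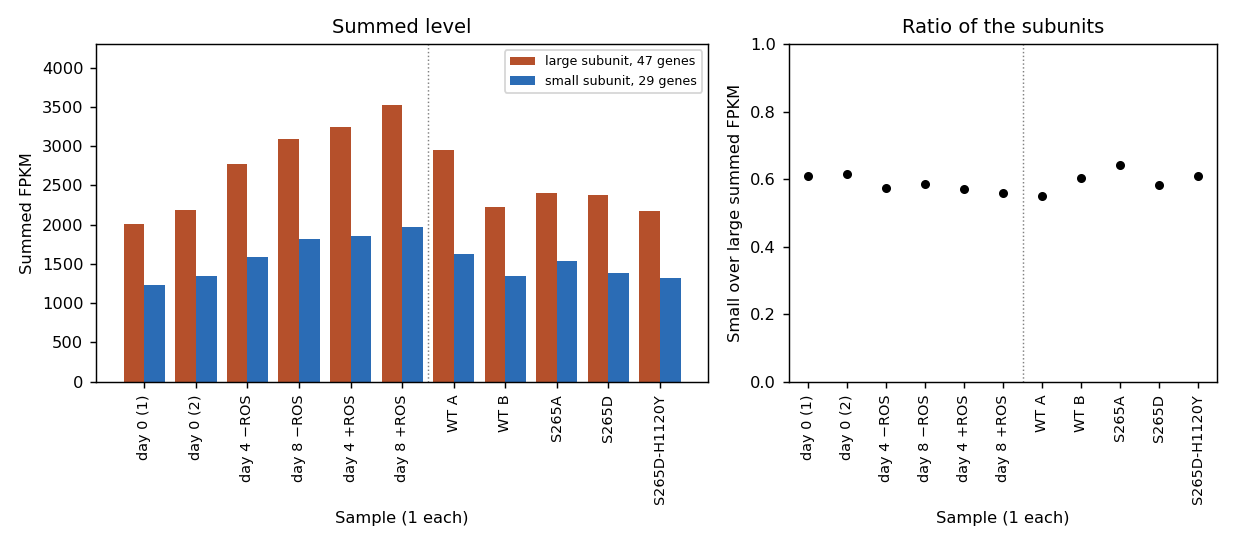
Left, summed FPKM of the large (47 genes) and small (29 genes) subunit in each sample, as bars from 0. Right, the small subunit sum divided by the large subunit sum in each sample, which went from 0.549 in WT A to 0.641 in S265A while the sums themselves were highest at day 8 with ROS (3527 and 1971 FPKM).

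The balance of the subunits changed less than the level of either. The large subunit summed to 2008 and 2183 FPKM at day 0, 2770 and 3089 FPKM at days 4 and 8 without ROS, and 3244 and 3527 FPKM with ROS. The small subunit summed to 1226 and 1345 FPKM at day 0, 1591 and 1811 FPKM without ROS, and 1856 and 1971 FPKM with ROS. The ratio of the small to the large sum was 0.610 and 0.616 at day 0 and 0.559 to 0.586 in the induced samples. The ratio of the median levels ran the opposite way, from 0.780 and 0.837 at day 0 to 0.903 to 1.04 after induction. Mrps21 and Mrps6, the most abundant members of the small subunit, weigh most in the sum and moved little: Mrps21 had 236 and 276 FPKM at day 0 and 278 and 305 FPKM at day 8 without and with ROS, and Mrps6 had 140 and 152 FPKM and then 158 and 185 FPKM. No statement on a shift between the subunits therefore held for both measures.

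The other genes of mitochondrial translation were set beside the members. At day 8 with ROS over day 0, 12 of 17 mitochondrial aminoacyl-tRNA synthetases, which load amino acids onto tRNA, were at least 1.5-fold higher (median log2 ratio 0.76), as were 7 of 12 translation factors (0.72) and 11 of 17 factors for ribosome assembly and rRNA (0.75). In each of these lists 0 were at least 1.5-fold lower. Among genes named after their values were seen, Tufm, the elongation factor that brings tRNA to the ribosome, had 38.4 and 43.3 FPKM at day 0 and 69.9 and 84.7 FPKM at day 8 without and with ROS. Mtg1, a GTPase of large subunit assembly, had 3.72 and 3.76 FPKM and then 11.5 and 15.6 FPKM. Nsun4, a methyltransferase of the small subunit rRNA, had 4.82 and 5.49 FPKM and then 4.04 and 3.56 FPKM.

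Ribosomal proteins whose symbols do not begin with Mrp moved less: 2 of 6 were at least 1.5-fold higher (median log2 ratio 0.18). Aurkaip1 and Chchd1 were the higher pair, with 148 and 123 FPKM at day 8 with ROS against 83.5 and 91.5 and against 70.8 and 88.9 FPKM at day 0. Dap3, a GTP-binding protein of the small subunit, had 25.7 and 28.3 FPKM at day 0 and 29.7 FPKM at day 8 with ROS. Nuclear genes of the respiratory chain and ATP synthase, the complexes that mitochondrial translation helps to build, had a median log2 ratio of 1.75, and 80 of 83 were at least 1.5-fold higher. The cytosolic ribosomal proteins had a median of -0.26, with 3 of 82 at least 1.5-fold higher and 12 lower. These last lists were made by symbol patterns and hold a few genes that are not subunits, such as Ndufa4l2 and Rps19bp1. The members thus stood between the respiratory chain and the cytosolic ribosome in the size of their median.

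**Figure D4:**
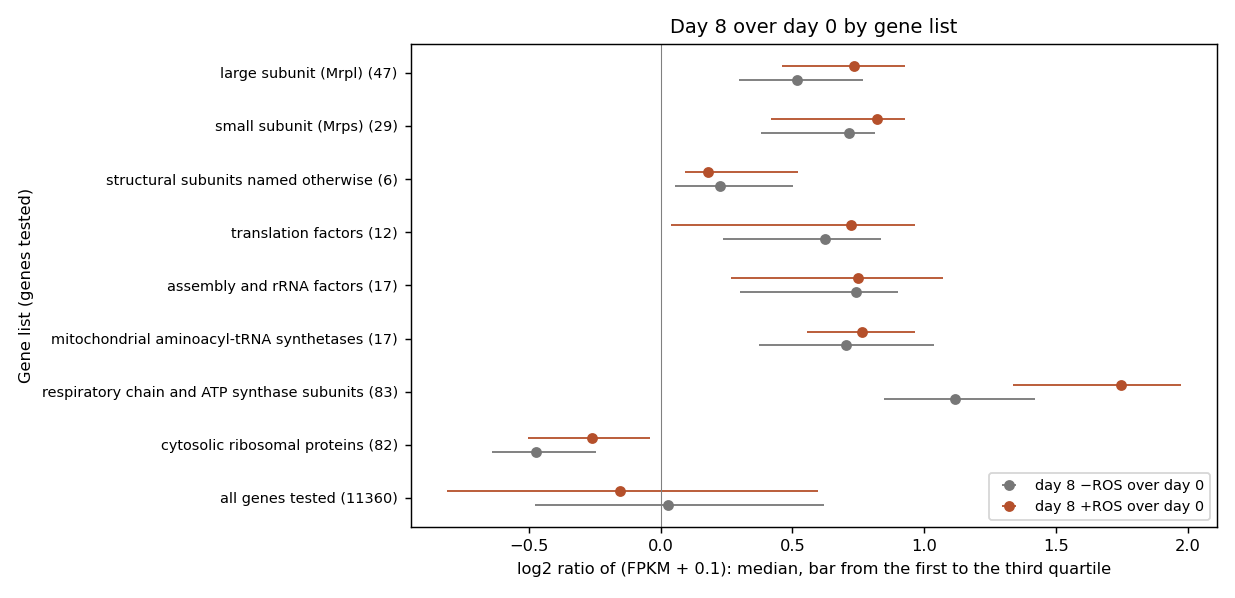
Median log2 ratio of (FPKM + 0.1) for each gene list at day 8 over day 0 with ROS (orange) and without ROS (grey), with bars from the first to the third quartile of the genes in the list. With ROS the members' subunits have medians of 0.73 and 0.82, the respiratory chain 1.75, the cytosolic ribosomal proteins -0.26 and all genes tested -0.16.

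Between day 4 and day 8 the members changed little. With ROS the median log2 ratio of day 8 over day 4 was 0.04, with 4 members at least 1.5-fold higher and 1 lower (9.66% and 16.2% of the genes tested). The 3 highest were Mrpl48, Mrpl27, whose bacterial counterpart reaches into the site where amino acids are joined, and Mrpl23 at the exit of the tunnel for the new chain. Mrpl48 went from 27.1 to 46.4 FPKM, Mrpl27 from 83.5 to 137 FPKM and Mrpl23 from 25.8 to 41.1 FPKM. The lower one was Mrps22, described above. Without ROS the median was 0.11, with 4 higher and 0 lower (12.5% and 10.1%), and Mrpl27 was among them again, from 63.6 to 117 FPKM. In limma 0 members and 0 of the genes tested passed in either arm. An unadjusted p under 0.05 was found for 8 members with ROS and 12 without ROS (10.5% and 15.8%), against 34.9% and 33.04% of the genes tested. In the fit over all 11 samples 0 passed as well.

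The second question was whether the members differ between cells induced with ROS (beige adipocytes in the study) and without it (white adipocytes). The difference was small and in the same direction for most members. At day 8 the median log2 ratio of ROS over no ROS was 0.16 for the members and -0.19 for all genes tested. It was 0.20 for the large and 0.11 for the small subunit. At day 4 it was 0.20 for the members (0.21 and 0.20 by subunit) and -0.05 for all genes tested. Only 1 member was at least 1.5-fold higher at each day, against 6.04% of the genes tested at day 8 and 1.18% at day 4, and 0 were that much lower, against 19.6% and 4.83%. At 2-fold 0 members were higher at day 8, against 2.25% of the genes tested. The member was Mrpl9 at day 8, with 71.0 FPKM with ROS and 45.9 FPKM without it, and Mrps28 at day 4, with 54.0 and 35.0 FPKM. Sums of marker lists differed in this comparison at day 8. The 6 adipocyte markers summed to 35956 FPKM with ROS and 9809 FPKM without it, mostly from Fabp4 (31402 and 7631 FPKM). Adipoq, Plin1, Cidec and Lpl were also higher with ROS, and Pparg was lower (140 and 231 FPKM). The 3 beige markers (Ucp1, Cidea, Cox8b) summed to 168 and 41.7 FPKM and the markers of dividing cells to 240 and 293 FPKM. The 5 preadipocyte markers (Pdgfra, Dlk1, Cd34, Ly6a, Thy1) summed to 131 and 555 FPKM, mostly from Ly6a (108 and 495 FPKM). At day 4 the adipocyte markers summed to 33593 and 23743 FPKM, with Lpl and Pparg lower with ROS, and the preadipocyte markers to 182 and 232 FPKM. The beige markers at day 4 summed to 1.399 FPKM with ROS and 1.693 FPKM without it. By these markers the day 4 pair compares ROS with no ROS rather than beige with white cells. The part of the marker differences in the members' values was not tested.

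Of the 76 members, 61 were higher with ROS than without it at both day 4 and day 8, 40 of the large and 21 of the small subunit, and 19.7% of the genes tested showed that order. The size of these differences was close to that between the day 0 samples, where the members' median was 0.12 with the sample labelled minus the higher. When each arm was set over the day 0 sample of its own label, an alternative chosen after seeing the data, the members' median of ROS over no ROS became 0.28 at day 8 and 0.31 at day 4, and 4 and 2 members were at least 1.5-fold higher (6.86% and 2.35% of the genes tested). Mrpl34 had 94.4 FPKM with ROS and 65.9 FPKM without it at day 8, a log2 ratio of 0.52, and 61.9 and 48.7 FPKM at day 4. Mrps35 had a log2 ratio of 0.48 at day 8. At the other end Mrps22 had 30.3 FPKM with ROS and 40.2 FPKM without it at day 8, although at day 4 it had 54.9 and 46.6 FPKM. Mrpl17 (8.32 and 9.93 FPKM at day 8, 10.2 and 9.29 FPKM at day 4) and Mrpl52 (49.1 and 56.7 FPKM, then 51.7 and 45.6 FPKM) also changed order between the days.

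In limma 0 members passed at day 4 or day 8, where 12.9% of the genes tested passed at day 8 and 0 of them at day 4. An unadjusted p under 0.05 was found for 5 members at day 8 and 1 at day 4 (6.58% and 1.32%), against 35.03% and 9.965% of the genes tested. The smallest adjusted p of a member was 0.0635, for Mrpl9 at day 8 (log2 fold change 0.63 ± 0.118), and in the fit over all 11 samples 0 members passed. With a pseudocount of 1, with a variance trend or with no minimum FPKM, 1 member passed at day 8, as higher with ROS (1.32% of the members). Of all genes in these fits 4.52%, 3.49% and 2.55% passed as higher, and 12.5%, 11.4% and 4.97% as lower. The share of the members was thus not above that of the genes. The FPKM of all genes tested were lower in the sample with ROS by a median of 0.19 on the log2 scale. When samples were scaled by the median of ratios, the subunit medians at day 8 became 0.40 and 0.31, and 7 members were at least 1.5-fold higher. This scaling raises the ratio of every gene in the comparison, and the share of the genes tested was not computed under it. Respiratory chain genes, for comparison, had a median log2 ratio of 0.58 at day 8 without scaling, with 41 of 83 at least 1.5-fold higher.

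The third question was how the members respond to the form of JMJD1A in the transduced cells. The targeted gene was checked first. Kdm3a, read as mouse transcript, had 20.4 FPKM in WT A, 17.9 in WT B, 13.03 in S265A, 23.0 in S265D and 28.5 in S265D-H1120Y, and 21.1 FPKM in untransduced cells at day 8 with ROS. Whether reads of the human cDNA are among these was not separated, so the knockdown could not be checked.

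By the members' median log2 ratio, the 2 WT samples were farther apart than S265A or S265D was from either of them. The large subunit summed to 2949 FPKM in WT A and 2220 FPKM in WT B, and the small subunit to 1620 and 1341 FPKM. Of the 76 members, 28 were at least 1.5-fold lower in WT B than in WT A and 1 was higher (16.7% and 21.7% of the genes tested), with a median log2 ratio of -0.38 against 0.04 for all genes tested. Mrpl18 had 100 FPKM in WT A and 45.0 FPKM in WT B, Mrpl3 60.4 and 27.4 FPKM, Mrpl43 61.7 and 28.1 FPKM, and Mrps27, an RNA-binding protein of the small subunit, 32.9 and 16.4 FPKM. Mrpl24, the member that was higher, had 51.1 and 85.8 FPKM. These members were chosen after their values were seen.

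WT A was the highest of the 5 transduced samples for 52 members, 30 of the large and 22 of the small subunit, an order that 31.8% of the genes tested showed. Sums of marker lists differed within this pair. The adipocyte markers summed to 15390 FPKM in WT A and 29552 FPKM in WT B, mostly from Fabp4 (12393 and 26902 FPKM). Lpl and Pparg were also higher in WT B. Adipoq (978 and 738 FPKM), Plin1 (293 and 158 FPKM) and Cidec (1230 and 808 FPKM) were lower there. The beige markers summed to 120 and 21.2 FPKM. The preadipocyte markers summed to 136 and 552 FPKM, mostly from Ly6a (116 and 496 FPKM). The 4 macrophage markers summed to 5.03 and 16.6 FPKM, with Emr1 and Ptprc at 0 and Cd68 making up nearly all of it. The 5 markers of dividing cells summed to 175 and 132 FPKM, although Mki67 (14.3 and 16.8 FPKM) and Top2a (30.4 and 48.7 FPKM) were higher in WT B. The part of these in the difference was not tested.

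**Figure D5:**
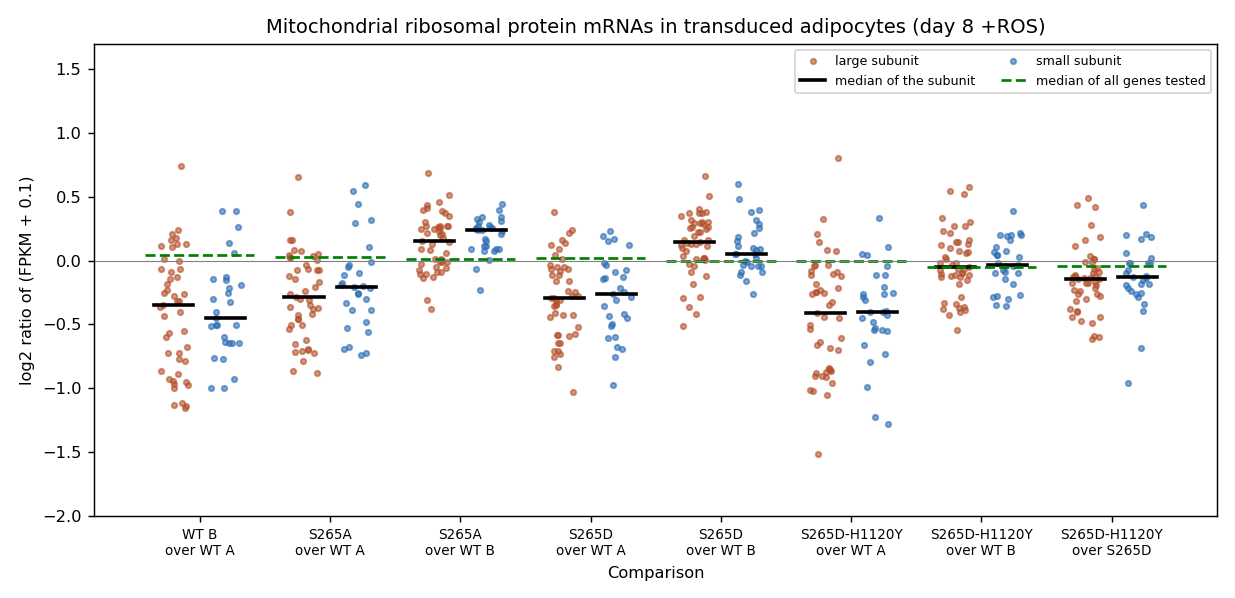
Log2 ratio of (FPKM + 0.1) of each member between transduced samples (points, large subunit left and small subunit right in each pair), with the median of each subunit (black bars) and of all genes tested (green dashes). The members' medians are below 0 against WT A (-0.25 for S265A, -0.28 for S265D and -0.40 for S265D-H1120Y) and change sign for S265A and S265D against WT B (0.21 and 0.12).

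Against the mean of the WT pair, S265A had a median log2 ratio of -0.05 for the members and S265D of -0.12, with all genes tested at -0.02 in both. In each of the comparisons 0 members were at least 1.5-fold higher or lower, where 3.45% and 6.43% of the genes tested were for S265A, and 3.41% and 3.84% for S265D. The outcome depended on the WT sample. S265A had 14 members at least 1.5-fold lower than in WT A and 0 lower than in WT B (11.2% and 8.89% of the genes tested), and S265D had 15 and 0 (11.4% and 4.28%). The summed level of the large subunit was 2398 FPKM in S265A and 2375 FPKM in S265D, and that of the small subunit 1537 and 1384 FPKM. All 4 of these sums lie between those of WT B and WT A.

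S265D and S265A, the form that mimics phosphorylation and the form that cannot be phosphorylated, had a median log2 ratio of -0.01 over the members. Mrpl1 was at least 1.5-fold higher in S265D, with 14.1 against 7.60 FPKM, and Mrpl52 at least 1.5-fold lower, with 31.1 against 49.0 FPKM (8.71% and 4.86% of the genes tested). For Mrpl1 the WT samples had 12.6 and 9.90 FPKM, which lie between the mutants. Mrps36 had 62.1 FPKM in S265D and 44.2 FPKM in S265A, with 63.6 and 40.8 FPKM in WT A and WT B, so these samples overlap.

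S265D-H1120Y, in which the demethylase is inactive, had the lowest sum of the large subunit (2173 FPKM) and of the small subunit (1324 FPKM) among the transduced samples, and was the lowest of the 5 for 35 members (25.4% of the genes tested). The median log2 ratio over S265D was -0.14 for the members and -0.04 for all genes tested, with 0 members at least 1.5-fold higher and 5 lower (6.80% and 11% of the genes tested). The 5 were Mrps36, from 62.1 FPKM in S265D to 31.9 FPKM, Mrps27, from 21.6 to 13.4 FPKM, Mrpl1, from 14.1 to 9.19 FPKM, and Mrpl46 and Mrpl11. For Mrps36, Mrps27, Mrpl1 and Mrpl11 the value in S265D-H1120Y was below both WT samples. The share of members that were 1.5-fold lower was not above that of the genes tested.

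In limma, where the WT pair gives the spread (1 residual degree of freedom), 0 members and 0 of the genes tested passed in any of the 4 comparisons among WT, S265A, S265D and S265D-H1120Y, and 0 members had an unadjusted p under 0.05. In the fit over all 11 samples 0 members passed too, and 1 had an unadjusted p under 0.05 in S265D over S265A. With 1 sample per mutant and a WT pair this far apart, differences of the size seen were not detectable.

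The transduced cells can be set beside the untransduced cells at the same day with ROS, although no label says that they were grown together. All 5 transduced samples were below the untransduced sample for 50 members, 28 of the large and 22 of the small subunit, against 26.2% of the genes tested. The mean of WT over untransduced cells had a median log2 ratio of -0.38 for the members and 0.05 for all genes tested. Mrpl20 was the farthest below, with 285 FPKM in the untransduced sample and 83.2 to 138 FPKM in the transduced samples. Mrpl19 was the farthest above, with 6.46 FPKM and then 8.60 to 12.4 FPKM. The batch of culture and the transduction cannot be told apart in this comparison.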

How the data were processed

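The members and gene lists were chosen with earlier results of these data known. Groups follow the sample labels, and day 0 and WT were means of 2 samples. TruSeq libraries had been sequenced. Per the methods of the study, reads were mapped by Burrows-Wheeler aligner against both UCSC genes and the mm9 genome, the better hit was kept and a local realignment with k-mers of 11 followed. The authors deposited FPKM per transcript and strand, sample by sample. The mapped bases deposited beside them, a coverage signal, were used only for depth. They are no read counts, so no count test was run. The deposited columns of log-transformed FPKM were not used.

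From the FPKM, log2 ratios of (value + 0.1) were computed, which understate changes of low genes, and called at 1.5-fold, over coding genes with a mean FPKM of at least 1. The test was limma (3.58.1, in R 4.3.3) on the same log2 scale, with Benjamini-Hochberg adjustment over all genes tested and a threshold of 0.05, in separate fits for the time course and the transduced samples. The script was tested on simulated data. Members named are the 3 highest and 3 lowest in mean FPKM per subunit and in each comparison, and 14 fixed for their place or role. Not all of these are named, and members outside the rule are given as chosen after their values were seen. Overlap with other exons was read from GENCODE for mm9, and promoters from RefSeq (GRCm38.p6). Alternatives changed the pseudocount, the minimum FPKM, the transcript used, the scaling, the replicate samples, the assignment of subunits and the fit. Gene by gene, the squared difference between the samples of a pair was divided by the variance of sampling noise. The median of this quotient was 3.98 (day 0) and 47.1 (WT), if a read is taken as 100 bases. Python 3.11.15 with pandas 2.3.3, numpy 2.4.6 and matplotlib 3.10.9 made the tables and plots.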

Additional observations from a re-analysis of the deposited data

Results flagged for a closer look

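The antisense strand of the members was not used in any comparison above, and 5 members reached at least 1 FPKM there in a sample after induction and at least 2 times their higher day 0 value. The share of all genes tested that did so was not computed. The highest values of these 5 members were 1.80 FPKM for Mrpl30 and 1.37 FPKM for Mrpl12, both in WT A, 1.46 FPKM for Mrpl24 in WT B, 1.36 FPKM for Mrpl20 at day 4 with ROS, and 1.13 FPKM for Mrpl27 in WT A. At day 0 the same strands had at most 0.835, 0.308, 0.607, 0.640 and 0.234 FPKM in that order. Mrps25, which is not among the 5, had the highest antisense level of the members. It had 5.91 and 5.24 FPKM at day 0 and 4.11 to 6.50 FPKM in the other samples. In WT B its antisense value (5.65 FPKM) was above its sense value (4.82 FPKM). Over all members the antisense strand held 0.441% to 0.646% of the summed FPKM of both strands in a sample. Whether this is antisense RNA or sense RNA read on the wrong strand was not tested.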

How the results depend on the processing

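Of 467 recomputed values, 420 stayed within 1.5 times the count or within the spread of the pair and 47 moved. The sign changed for 4 subunit medians, all without WT A: from -0.05 to 0.15 (large) and -0.01 to 0.24 (small) in S265A, and from -0.11 to 0.14 and -0.14 to 0.06 in S265D. Medians of the transduced samples were set against the spread of the WT pair, 0.24 (large) and 0.32 (small), which is wider than these medians. Except for the large subunit in S265D, these sign changes therefore count among the 420, so staying within that spread does not mean keeping the sign. At day 8 with ROS over day 0, 58 members passed limma, 8 in the fit over all 11 samples and 14 with no minimum FPKM (chosen after seeing the data). At day 4 with ROS it was 57, 2 and 9, at day 4 without ROS 41, 0 and 6, and at day 8 without ROS 48, 0 and 7. For ROS over no ROS at day 8, 0 became 1 with a variance trend, a pseudocount of 1 or no minimum, where 3.49%, 4.52% and 2.55% of all genes passed as higher. Scaling by the median of ratios moved the subunit medians (large, small) to 0.86 and 0.94 at day 8 with ROS over day 0, to 0.14 and 0.16 from day 4 to day 8 with ROS, and to 0.40 and 0.31 for ROS over no ROS at day 8, and the large subunit to 0.44 at day 8 without ROS over day 0. Counts at 1.5-fold under scaling became 7 higher from day 4 to day 8 with ROS, 1 lower without ROS, 7 higher for ROS over no ROS, 1 lower for S265D over WT and 2 lower for S265D-H1120Y over S265D, which was also 2 with a pseudocount of 1. The shares of the genes tested at 1.5-fold were not computed under scaling. Another choice of transcript gave 1 lower in S265A over WT, for the highest transcript and for the sum, and a minimum of 10 FPKM gave 0 higher in S265D over S265A. The median ratio of small to large sums, 0.586, was 0.489 with subunits as in structures, 0.580 with the highest transcript and 0.923 as a ratio of medians. With each arm over the day 0 sample of its own label (chosen after seeing the data; ROS had not yet been added at day 0), the subunit medians of ROS over no ROS became 0.28 and 0.22 at day 8 and 0.31 and 0.30 at day 4, with 4 members higher and 1 lower at day 8 and 2 higher at day 4. No paired analysis was possible because the labels share no replicate numbers between groups.

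Leaving out 1 sample of a pair moved these values, given as ranges. Against day 0, 0 to 1 members were lower with ROS on either day (1 without day 0 sample 1), 0 to 3 were lower at day 4 without ROS (0 without day 0 sample 2), and the large subunit median at day 8 without ROS was 0.43 to 0.58. Against WT, members higher numbered 1 to 2 and lower 0 to 14 in S265A, and 0 to 2 and 0 to 15 in S265D, with a large subunit median of -0.29 to 0.14 in S265D: the counts of 14 and 15 are against WT A alone. The shares of the genes tested that were lower against each WT sample are given above. No such share is given for the counts of members higher, so nothing is read from them. Depth limited no member, and the number of samples limits every comparison.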

Other observations

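A protein-coding gene on the other strand started within 1000 bases upstream of 16 of 76 members (21.1%). The share was 12.02% of the genes tested with an annotation. Pairs whose annotated starts overlap were not counted. Mrpl46 (minus strand, start at 85927975) and Mrps11 (plus strand, start at 85928017), both on chromosome 7, are not among the 16. Of the 16, Mrps12 starts 171 bases from Sars2, the mitochondrial seryl-tRNA synthetase. Mrps18c starts 27 bases from Helq, Mrps27 108 bases from Ptcd2 and Mrpl30 66 bases from Mitd1. Sars2 had 4.28 and 4.37 FPKM at day 0 and 6.60 FPKM at day 8 with ROS, and Mrps12 went from 26.4 and 31.3 to 40.0 FPKM.

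Exon length and level went little with the size of the change. Over the 76 members, which share the libraries, Spearman's rho of the log2 ratio of day 8 with ROS over day 0 was 0.12 with exon length and -0.009 with mean FPKM. The 38 members with exons under 1054 bases had a median log2 ratio of 0.65, and the other 38 had 0.83.

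Several of the other genes of mitochondrial translation peaked at day 4. Gfm1, an elongation factor, had 40.0 and 41.7 FPKM at day 0, 106 FPKM at day 4 and 82.3 FPKM at day 8 with ROS, and 95.1 and 75.3 FPKM without it. Ptcd3, an RNA-binding protein of the small subunit, had 30.8 and 27.9 FPKM at day 0, 68.6 FPKM at day 4 and 34.2 FPKM at day 8 with ROS, and 60.6 and 31.7 FPKM without it. Both were chosen after their values were seen, and each value is 1 sample.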
